A study of Mus musculus with 6 samples.

Results

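The genes described here are 10 mouse genes for secreted or shed proteins of the acute-phase response and of innate defence at epithelial surfaces: Saa1, Saa2, Saa3, Lcn2, Hp, C3, Cp, Orm1, Lbp and Pigr. They were found by symbol among the 19739 genes of the deposited table, and all 10 passed the filter on low values, as did 16394 genes in all. RNA was sequenced from cultured primary mammary luminal cells, the inner epithelial layer of the mammary duct, sorted from wild-type (WT) mice. The EFNA3 group (3 libraries) received ephrin-A3 protein at 1 µg/ml in serum-free medium for 24 hours, and the control group (3 libraries) had EFNA3 at 0 µg/ml; both had first been starved of serum for 12 hours. The growth medium of both groups held 5% FBS, 10 ng/ml of EGF, 20 ng/ml of FGF2, heparin (4 µg/ml) and the inhibitor Y-27632 (5 µM). The labels give neither the age of the mice nor whether libraries came from separate mice or cultures, so errors measure the spread between libraries, which may be technical.

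The acute-phase response is a change in the proteins that the liver and some epithelia release after infection or injury. Its genes are switched on by interleukin-6 through STAT3, and by interleukin-1 and tumour necrosis factor through NF-kB and the C/EBP factors. Mammary epithelium is known to make several of these proteins and to pass them into milk. EFNA3 binds Eph receptors and is normally tethered to the surface of the cell that makes it.

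The serum amyloid A genes Saa1, Saa2 and Saa3 stood higher in every EFNA3 library than in any control library, by 0.62, 0.60 and 0.80 on the log2 scale, or 1.54-, 1.52- and 1.74-fold. The groups overlapped for the other 7 genes, whose differences ran from -0.14 for C3 and Cp to 0.20 for Lcn2. The 10 genes were chosen by function with their values in this contrast, EFNA3 minus control, already known, so their differences are a description and carry no test. Fewer cells that express a gene and less of its RNA per cell cannot be told apart in bulk libraries. Of all tested genes, 8.53% were higher in EFNA3 with no overlap between groups and 7.45% lower with none, against 3 and 0 of the 10 genes. The limma test called 0% of the 16394 genes at an adjusted p of 0.05 (smallest adjusted p = 0.55), while 1104 genes (6.73%) had an unadjusted p under 0.05.

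The promoter windows of the genes with the largest differences are shown with that of Lcn2, since the 3 Saa genes shared a direction and lie close together on chromosome 7, in the order Saa3, Saa4, Saa1 and Saa2 among named protein-coding genes. The windows are those of RefSeq for build GRCm38.p6, from 250 bases before to 50 bases after an annotated start site, and were held for 7 of the 10 genes; Hp, Orm1 and Lbp had none among the sequences used here. Capitals mark matches to TTGCNNAA, a core that C/EBP factors recognise, on either strand, so a match on the other strand reads TTNNGCAA. The Saa1 window lies at chr7:46742931-46743230 on the minus strand, the Saa2 window at chr7:46751583-46751882 on the plus strand, the Saa3 window at chr7:46715627-46715926 on the minus strand and the Lcn2 window at chr2:32387690-32387989 on the minus strand.
Saa1: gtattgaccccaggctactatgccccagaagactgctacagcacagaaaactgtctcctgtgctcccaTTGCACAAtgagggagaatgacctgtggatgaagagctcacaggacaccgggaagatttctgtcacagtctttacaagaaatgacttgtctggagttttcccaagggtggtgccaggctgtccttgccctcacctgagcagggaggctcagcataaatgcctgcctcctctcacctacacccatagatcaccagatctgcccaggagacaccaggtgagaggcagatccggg
Saa2: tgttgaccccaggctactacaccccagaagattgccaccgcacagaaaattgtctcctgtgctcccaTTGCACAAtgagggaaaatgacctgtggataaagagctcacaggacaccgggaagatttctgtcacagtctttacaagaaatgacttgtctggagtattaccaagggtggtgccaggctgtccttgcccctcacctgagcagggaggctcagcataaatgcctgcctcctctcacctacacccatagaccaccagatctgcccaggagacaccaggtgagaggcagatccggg
Saa3: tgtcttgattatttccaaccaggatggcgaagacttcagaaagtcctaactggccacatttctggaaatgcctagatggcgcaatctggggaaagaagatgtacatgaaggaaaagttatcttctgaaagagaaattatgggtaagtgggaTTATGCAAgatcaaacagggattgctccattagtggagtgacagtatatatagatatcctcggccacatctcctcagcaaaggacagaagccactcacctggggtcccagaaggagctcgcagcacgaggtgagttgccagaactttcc
Lcn2: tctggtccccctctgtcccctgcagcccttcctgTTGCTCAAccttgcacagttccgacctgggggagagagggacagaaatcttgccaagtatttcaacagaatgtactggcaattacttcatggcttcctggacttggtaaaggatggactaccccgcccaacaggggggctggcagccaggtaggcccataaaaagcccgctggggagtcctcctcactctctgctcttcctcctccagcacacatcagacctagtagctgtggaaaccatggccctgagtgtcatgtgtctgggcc

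The Saa1 and Saa2 windows were near copies, with 287 identical bases over 301 aligned positions (95.3%), and held the same C/EBP core match. Saa1 and Saa3 windows shared 50.1% of aligned positions. The match began 182 bases before the annotated start in Saa1, 183 in Saa2, 99 in Saa3 and 216 in Lcn2. In C3 a match began 45 bases before the start, and in Cp, which had 2 overlapping windows, 70 bases before the start of the second. In all, 6 of the 8 windows, from 6 of the 7 genes, held the core, against 10.8% of all 32851 promoter windows. The near copies of Saa1 and Saa2 are counted separately among them. Pigr, the remaining gene, held a match to the STAT core TTCNNNGAA, 39 bases after its start; 8.3% of all windows held that core. The 10-letter kB consensus, searched on both strands, was in 8.5% of all windows and in 0 of the 8 windows of these genes. Matches did not overlap each other. A match describes letters only, and C3, Cp and Lcn2 held the C/EBP core although their groups overlapped.

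**Figure D1:**
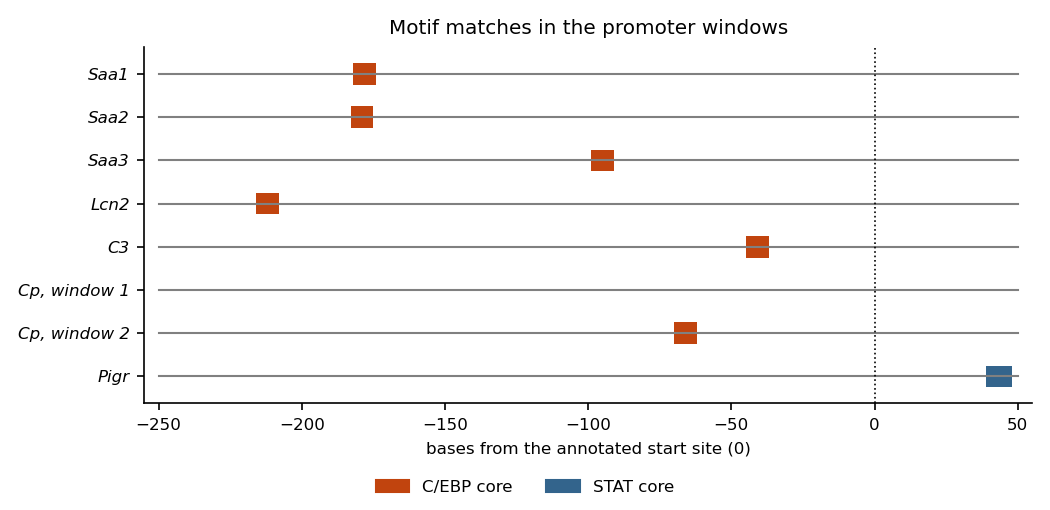
Position of motif matches in the 8 promoter windows of 7 genes; the x axis gives bases from the annotated start site, each grey line is one window and boxes are matches. Saa1 and Saa2 carry the C/EBP core at 182 and 183 bases before the start, and Pigr carries the STAT core after it.

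Serum amyloid A proteins are small apolipoproteins that travel with high-density lipoprotein and recruit leukocytes; in the mouse Saa3 is the form made largely outside the liver. Saa1 had log2 values of 12.44, 11.81 and 11.95 in EFNA3 replicates 1, 2 and 3, against 11.37, 11.57 and 11.40 in the controls. The lowest EFNA3 library lay above the highest control, and EFNA3 replicate 1 stood well above the other two. The difference was 0.62 (SE 0.15), with means of 12.07 ± 0.33 in EFNA3 and 11.45 ± 0.11 in control (SD, n = 3 each).

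Saa2, a neighbouring copy of Saa1, had 10.95, 10.31 and 10.39 in EFNA3 libraries, against 9.83, 10.11 and 9.92 in the controls. Its pattern followed that of Saa1, and the difference was 0.60 (SE 0.16). Transcripts of the copies had 572 identical bases over 609 aligned positions (93.9%), so that reads may have been split or lost between them and their separate values are uncertain. The Saa1 value exceeded that of Saa2 by 1.51 ± 0.03 in EFNA3 libraries and 1.49 ± 0.04 in controls (log2, SD, n = 3 each). Summed on the linear scale, Saa1 plus Saa2 reached 12.88, 12.25 and 12.37 in EFNA3 libraries, against 11.80, 12.02 and 11.84 in controls. That sum was 1.53-fold higher in EFNA3 (log2 difference 0.62, SE 0.15). It depends less on how counted reads were divided between the pair, but is not free of it, since it was taken from normalized values.

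Saa3 had 8.77, 8.73 and 8.53 in EFNA3 libraries, against 7.56, 8.26 and 7.83 in controls. Here the EFNA3 libraries lay close together and the controls were spread out, with control replicate 2 nearest to the EFNA3 group. The means were 8.68 ± 0.13 in EFNA3 and 7.88 ± 0.35 in control (SD, n = 3 each), a difference of 0.80 (SE 0.17). Saa3 is less like the other copies, with 61.6% of aligned transcript positions shared with Saa1. The 3 Saa genes did not keep the same order of libraries: EFNA3 replicate 2 was the lowest EFNA3 library for Saa1 and Saa2, while EFNA3 replicate 3 was the lowest for Saa3. Control replicate 2 was the highest control for all 3.

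Lcn2, Hp and Cp encode proteins that keep metals and haem from microbes or in circulation. Lipocalin-2, from Lcn2, binds bacterial siderophores and so withholds iron. Lcn2 had 15.53, 15.33 and 15.24 in EFNA3 libraries, against 15.21, 15.07 and 15.24 in controls, so that EFNA3 replicate 3 and control replicate 3 were equal. The difference was 0.20 (SE 0.10), with EFNA3 replicate 1 the highest.

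Haptoglobin, from Hp, binds free haemoglobin. Hp had 14.52, 14.22 and 14.18 in EFNA3 libraries, against 14.24, 14.13 and 14.25 in controls. Only EFNA3 replicate 1 stood above the controls, and the difference was 0.10 (SE 0.10).

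Ceruloplasmin, from Cp, carries copper and oxidises iron. Cp had 14.57, 14.87 and 14.97 in EFNA3 libraries, against 15.01, 14.97 and 14.87 in controls. EFNA3 replicate 1 lay below all other libraries, and the remaining EFNA3 libraries matched control values. The difference was -0.14 (SE 0.11).

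C3 and Lbp act in the sensing and marking of bacteria. C3 encodes the central complement component. It had 13.43, 13.96 and 14.02 in EFNA3 libraries, against 14.05, 13.96 and 13.83 in controls. EFNA3 replicate 1 again stood alone at the low end; the difference was -0.14 (SE 0.15).

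Lbp encodes the protein that hands bacterial lipopolysaccharide to CD14. It had 12.09, 11.92 and 11.85 in EFNA3 libraries, against 11.96, 11.89 and 11.98 in controls, a difference of 0.01 (SE 0.08). The highest and the lowest library were both EFNA3 libraries, with the controls between them.

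Orm1 and Pigr have other roles. Orm1 encodes orosomucoid, a plasma carrier of small molecules, and was the lowest of the 10 genes. It had 4.60, 4.16 and 4.04 in EFNA3 libraries, against 3.98, 4.34 and 4.05 in controls, and its difference of 0.14 (SE 0.30) had the widest error.

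Pigr encodes the polymeric immunoglobulin receptor, which carries IgA across epithelia into secretions such as milk. It had 10.75, 10.85 and 11.02 in EFNA3 libraries, against 11.06, 10.99 and 10.95 in controls. EFNA3 replicates 1 and 2 lay below all controls and EFNA3 replicate 3 lay among them, with a difference of -0.13 (SE 0.08).

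**Figure D2:**
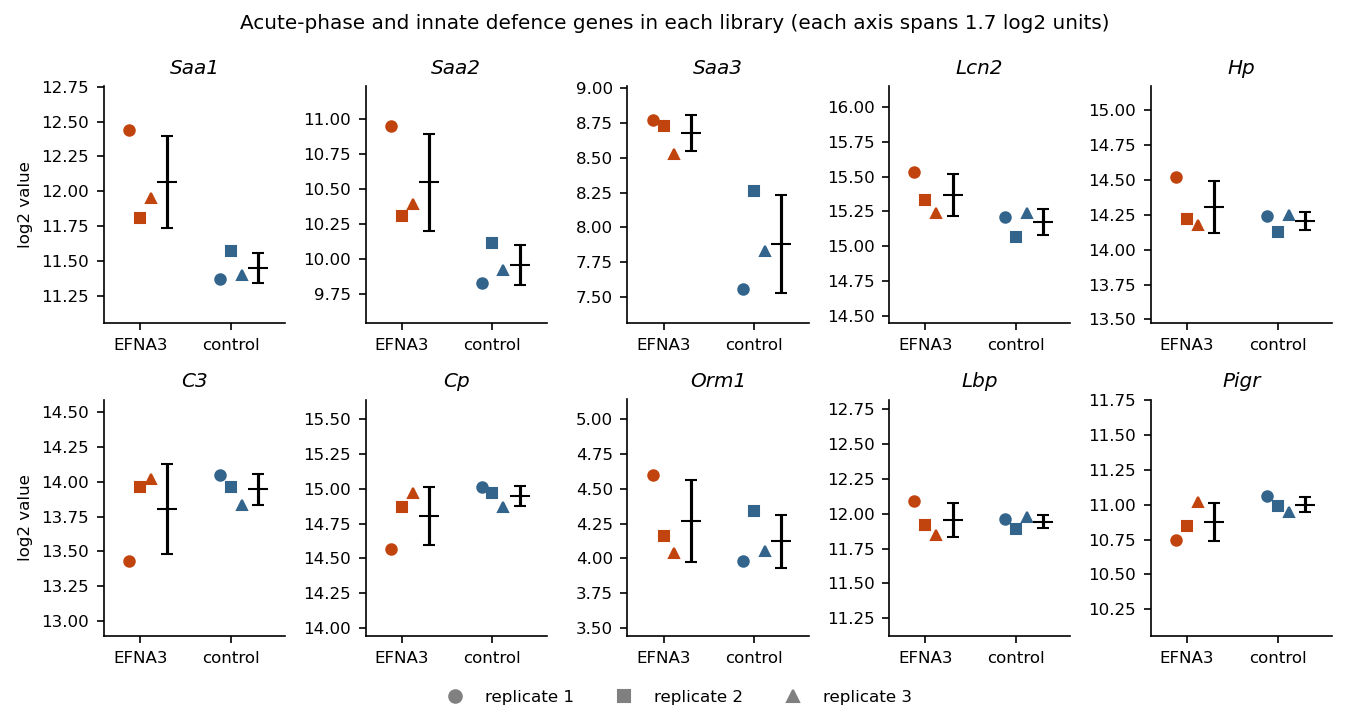
Log2 values (y axis) of the 10 genes in the EFNA3 and control libraries; symbols are replicates, and bars are means with SD (n = 3 each). Saa1, Saa2 and Saa3 show no overlap between groups, and EFNA3 replicate 1 lies apart from replicates 2 and 3 for most genes, upward for Saa1 and downward for C3.

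Levels of the 10 genes were ranked per length, as the log2 value minus log2 of the transcript length in kilobases. In the other lists, the most abundant genes are those with the highest control mean of log2 values, not scaled to length. On this scale Lcn2 was the most abundant of the 10 genes, at a mean level of 15.51 in EFNA3 and 15.31 in control, above 99.9% of 15972 tested genes with a length. Hp followed at 13.88 in EFNA3 and 13.78 in control. In EFNA3 libraries the order went on with Saa1 at 12.78, Cp at 12.61, C3 at 11.45, Saa2 at 11.28, Lbp at 10.62, Saa3 at 9.53, Pigr at 8.93 and Orm1 at 4.63. In controls it went on with Cp at 12.76, Saa1 at 12.16, C3 at 11.59, Saa2 at 10.68, Lbp at 10.61, Pigr at 9.06, Saa3 at 8.73 and Orm1 at 4.49. Saa1 and Cp, and C3 and Saa2, lay within the larger of their SDs of each other in EFNA3 libraries, as did Saa2 and Lbp, and Pigr and Saa3, in controls. Saa1 and Saa3 each stood 1 place higher in the EFNA3 order than in the control order.

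EFNA3 replicate 1 leaned most with transcript length, and these genes span much of the range of lengths. Its deviation from the mean of the 6 libraries correlated with length at rho = -0.52 over 15972 genes. Control replicates 1 and 2 leaned the other way (0.32 and 0.35), and the remaining libraries less (0.05 to 0.14). These deviations share a mean and so are not independent. EFNA3 replicate 1 had a median deviation of 0.32 in the eighth of tested genes with the shortest transcripts (at most 935 nt). In the eighth with the longest (at least 5384 nt) its median deviation was -0.31. Saa1 (609 nt), Saa2 (606 nt) and Saa3 (555 nt) are among the shortest, and in that library they deviated by 0.69, 0.70 and 0.49. Lcn2 (908 nt), in the same eighth, deviated by 0.27. Hp (1345 nt) deviated by 0.26, where the median of its eighth was 0.23. C3 (5136 nt) and Cp (4564 nt) deviated by -0.44 and -0.30, where the median of theirs was -0.15. The part of length in the group differences cannot be told apart from that of EFNA3. The differences were therefore recomputed without EFNA3 replicate 1, and with length and GC share taken out. Leaving that library out lessened the lean with length but did not remove it. Over all genes with a length, the difference correlated with length at rho = -0.45 with all libraries and -0.26 without EFNA3 replicate 1. After the length and GC correction rho was -0.05.

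Without EFNA3 replicate 1, Saa1 and Saa2 were higher by 0.43 (SE 0.07) and 0.40 (SE 0.08), or 1.35- and 1.32-fold, and Saa3 by 0.75 (SE 0.17), or 1.68-fold. Each of these still had no overlap between groups, against 10.4% of 16206 tested genes higher with none; 0 of the 10 genes were lower with none, against 9.26%. Differences of the other genes were then smaller in size: 0.11 (SE 0.06) for Lcn2, -0.00 (SE 0.05) for Hp, 0.05 (SE 0.06) for C3, -0.03 (SE 0.06) for Cp and -0.07 (SE 0.07) for Pigr. Lbp, at -0.05 (SE 0.05), was the exception, and Orm1 stood at -0.02 (SE 0.37). With a spline in transcript length and GC share taken out of all 6 libraries, the differences were 0.48 (SE 0.10) for Saa1, 0.45 (SE 0.11) for Saa2, 0.65 (SE 0.17) for Saa3 and 0.07 (SE 0.06) for Lcn2. After that correction the remaining 6 genes lay between -0.06 and 0.02. The Saa genes had no overlap between groups here too, against 9.20% of 15972 genes higher with none, and again 0 of the 10 were lower with none, against 6.10%. The median over the 10 genes was 0.12 with all libraries, 0.02 without EFNA3 replicate 1 and 0.01 with the correction, against 0.004 and -0.001 over all tested genes with and without that library.

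**Figure D3:**
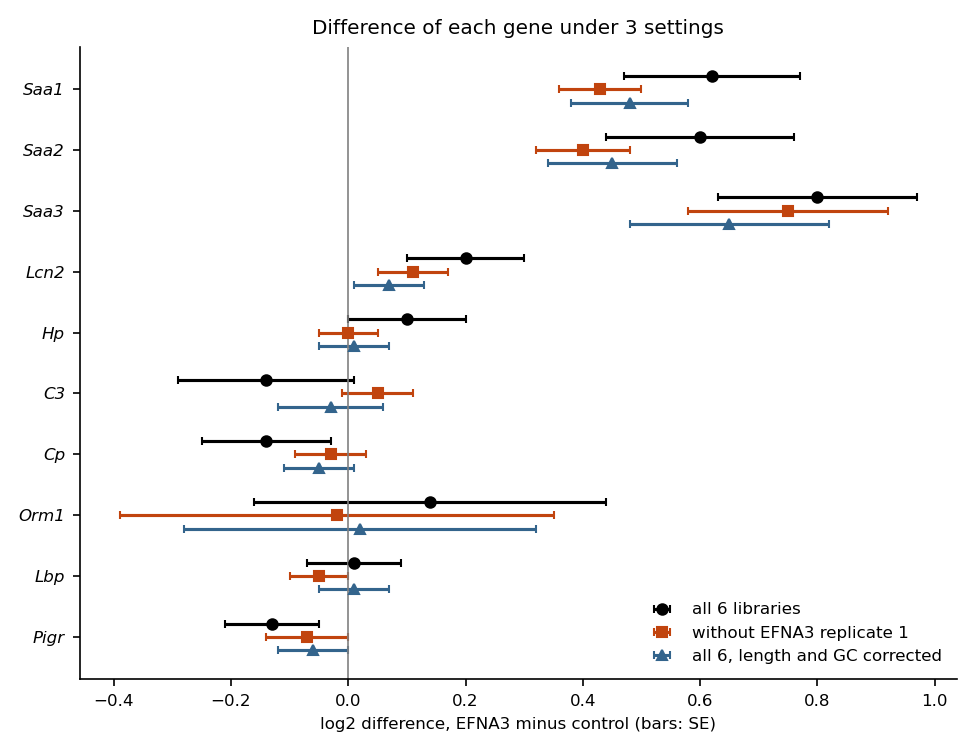
Log2 difference, EFNA3 minus control, of each gene (x axis, bars are SE) with all 6 libraries, without EFNA3 replicate 1, and after the length and GC correction. Saa1, Saa2 and Saa3 stay between 0.40 and 0.80 in the 3 settings, while the other genes lie nearer to 0.

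**Figure D4:**
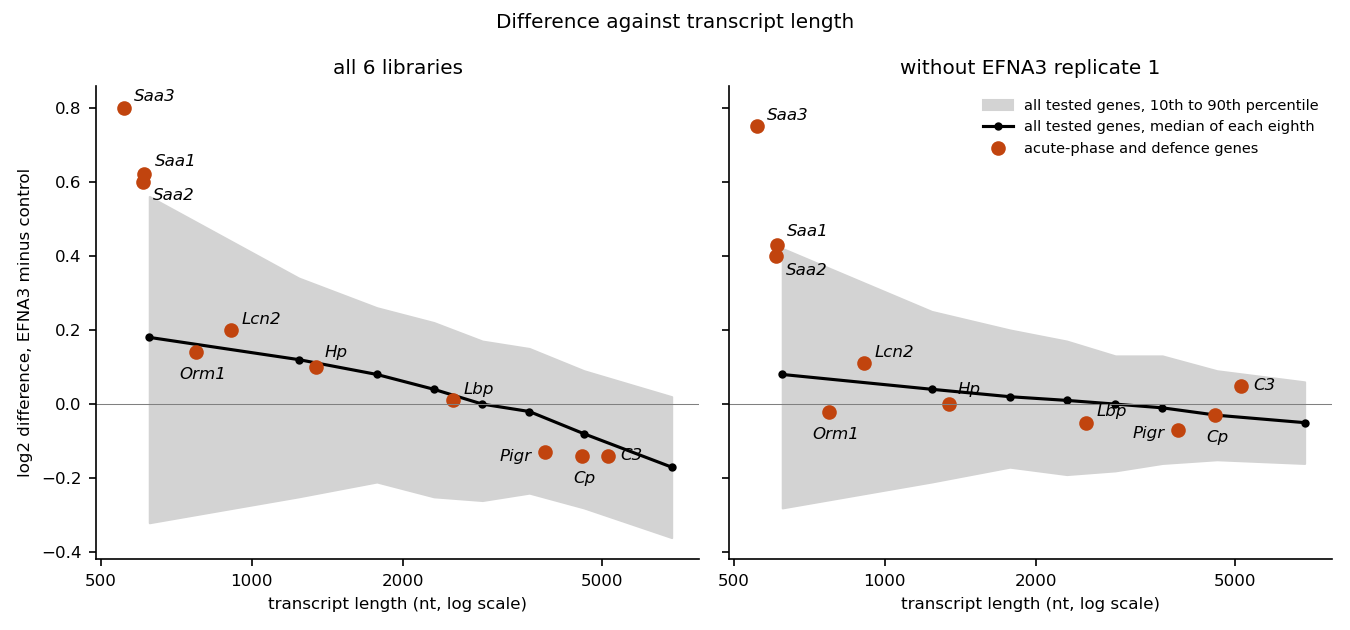
Log2 difference, EFNA3 minus control (y axis), against transcript length (log axis), with all 6 libraries and without EFNA3 replicate 1; red points are the 10 genes, the line joins the medians of eighths of all tested genes and the grey band spans their 10th to 90th percentile. With all libraries the median runs from 0.18 in the shortest eighth to -0.17 in the longest; Lcn2, Orm1, Hp, Lbp, Pigr, C3 and Cp then lie inside the band and the Saa genes above it. Without EFNA3 replicate 1 the band of the shortest eighth ends at 0.42, with Saa2 at 0.40 inside it, Saa1 at 0.43 on its edge and Saa3 at 0.75 above it.

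Other proteins of the acute phase did not share the size of the Saa differences. Of 26 further acute-phase plasma proteins listed, 8 were tested: 5 had higher and 3 lower means in EFNA3, with a median difference of 0.11, or 0.05 without EFNA3 replicate 1. Among the most abundant, Il1rn, the interleukin-1 receptor antagonist, was higher by 0.22 (SE 0.07) and was the 1 gene of the list with no overlap. Of all tested genes, 8.53% were higher and 7.45% lower with none. The metalloreductase gene Steap4 differed by -0.01 (SE 0.07), the pentraxin gene Ptx3 by 0.21 (SE 0.12), the fibrinogen gene Fgg by -0.14 (SE 0.10) and the angiotensinogen gene Agt by -0.12 (SE 0.14). Ptx3 was highest in EFNA3 replicate 1, at 12.31, and differed by 0.05 without it.

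Complement genes other than C3 lay on both sides of 0. Of 19 tested, 11 had higher and 8 lower means in EFNA3, with a median of 0.04; 3 were higher and 3 lower with no overlap, against 8.53% and 7.45% of all tested genes. Among the most abundant, clusterin, Clu, a chaperone that restrains the terminal complex, was higher by 0.17 (SE 0.08), and Cd55, which restrains C3 convertases, was lower by -0.15 (SE 0.08), both with no overlap. Masp1 of the lectin pathway differed by -0.13 (SE 0.12), or 0.02 without EFNA3 replicate 1, and Cr1l, another regulator of convertases, by 0.02 (SE 0.07). Others with no overlap, named after their values were seen, were C1ra and C9, higher by 0.31 (SE 0.14) and 0.32 (SE 0.15), and C4b, which differed by -0.27 (SE 0.09) but overlapped after the length and GC correction. C4a and Cd46, picked in the same way, differed by -0.66 (SE 0.33) and -0.58 (SE 0.22), both with overlap.

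Other secreted mucosal and antimicrobial proteins had a median difference of 0.01 over 17 tested genes, 9 higher and 8 lower. The chitinase-like gene Chil1 differed by 0.10 (SE 0.10), Mfge8, of the milk fat globule, by 0.01 (SE 0.09) and Wfdc18 by 0.30 (SE 0.15); without EFNA3 replicate 1 Chil1 and Wfdc18 differed by 0.01 and 0.11. The protease inhibitor gene Slpi was higher by 0.25 (SE 0.12) with no overlap, and by 0.10 without EFNA3 replicate 1. The mucin gene Muc15 was lower by -0.18 (SE 0.08) with no overlap. Muc4, named after its values were seen, differed by -1.15 (SE 0.49) with overlap, and by -0.52 without EFNA3 replicate 1. S100a8, named after its values were seen, was the other gene higher with no overlap, at 0.38 (SE 0.15). Its groups overlapped after the length and GC correction. Of the 17 tested genes, 2 were higher and 1 lower with no overlap, against 8.53% and 7.45% of all tested genes.

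Receptors and partners of these proteins had a median of 0.08 over 11 tested genes, or -0.02 without EFNA3 replicate 1. Cd14, which takes lipopolysaccharide from the Lbp protein, differed by 0.09 (SE 0.09) and its signalling receptor Tlr4 by -0.22 (SE 0.15), or -0.03 without that library. Tlr2, a receptor of bacterial lipoproteins, was higher by 0.17 (SE 0.06) with no overlap. The iron exporter gene Slc40a1 differed by 0.11 (SE 0.07) and the haem oxygenase gene Hmox1 by 0.13 (SE 0.09). Cd36, a scavenger receptor named after its values were seen, was lower by -0.51 (SE 0.13), the 1 gene of this list lower with no overlap. Of the 11 tested genes, 1 was higher and 1 lower with none, against 8.53% and 7.45% of all tested genes.

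In the pathways that induce acute-phase genes, 29 genes were tested, 15 higher and 14 lower, with a median of 0.02. Stat3 differed by -0.03 (SE 0.07), the shared receptor chain gene Il6st by -0.30 (SE 0.15), Jak1 by -0.17 (SE 0.10), the oncostatin M receptor gene Osmr by -0.22 (SE 0.11) and Nfkb1 by 0.02 (SE 0.07). Il6st, Jak1 and Osmr have long transcripts (5207, 4906 and 5491 nt) and were low in EFNA3 replicate 1; without it they differed by -0.09, -0.05 and -0.10. The C/EBP genes of the list were looked up after the values had been seen: Cebpb differed by 0.36 (SE 0.15), Cebpd by 0.34 (SE 0.15) and Cebpa by 0.02 (SE 0.10), each with overlap. Without EFNA3 replicate 1 these were 0.19, 0.20 and -0.06. Socs3, a feedback target of STAT3, differed by 0.02 (SE 0.09). Nfkbia and Tnf were higher with no overlap, by 0.31 (SE 0.09) and 0.11 (SE 0.09), against 8.53% of all tested genes. Tyk2 and Il1r1 were lower with none, by -0.17 (SE 0.08) and -0.13 (SE 0.07), against 7.45%. These genes too were picked after their values were seen. After the length and GC correction Tnf, Tyk2 and Il1r1 overlapped and Nfkbia did not. Other genes of the list had no overlap only after that correction, and were picked for it. Stat3, Lif, Myd88, Cebpb, Rela and Nfkbiz were then higher with none, against 9.20% of 15972 genes. Il17rc was then lower with none, against 6.10%. Il1a, an interleukin-1 gene also picked after its values were seen, had the largest difference of this list, 0.87 (SE 0.43) with overlap, and 1.00 with no overlap without EFNA3 replicate 1; it overlapped after the correction. Of these 5 lists 0 genes passed an adjusted limma p of 0.05 over all genes tested; at an unadjusted p under 0.05 the counts were 1 acute-phase, 3 complement, 2 mucosal, 2 receptor and 2 signalling genes of 8, 19, 17, 11 and 29 tested, against 6.73% of all tested genes.

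**Figure D5:**
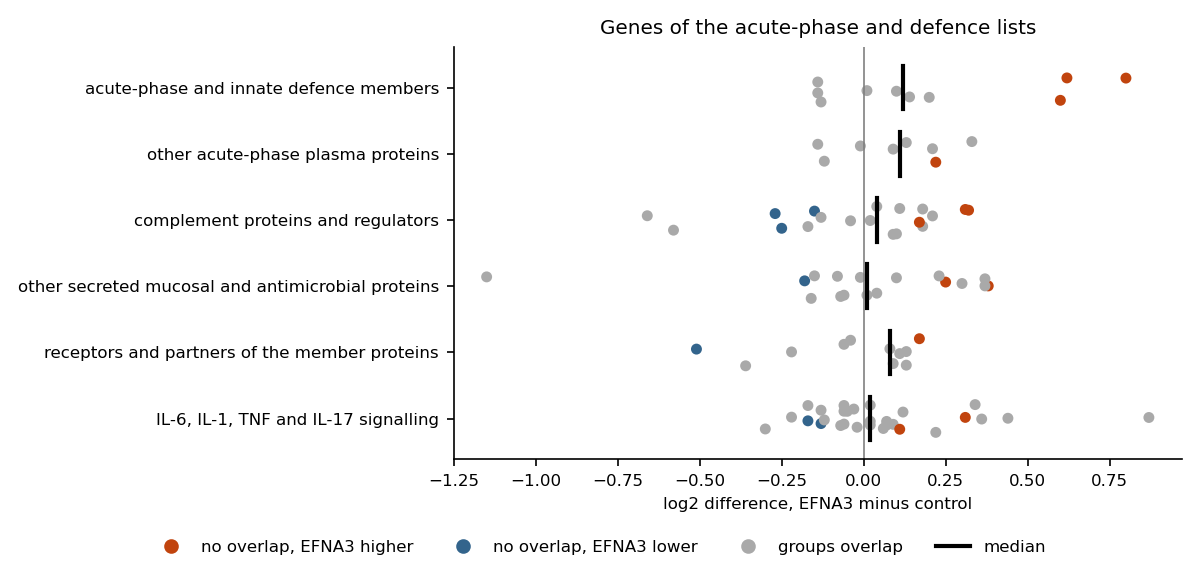
Log2 difference, EFNA3 minus control, of each tested gene in 6 lists (rows); black bars are list medians, red and blue points have no overlap between groups. List medians lie between 0.01 and 0.12, and the 3 Saa genes are the only red points above 0.50. The grey point at 0.87 is Il1a, and those at -1.15, -0.66 and -0.58 are Muc4, C4a and Cd46, whose groups overlap.

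All 12 genes listed as markers of luminal epithelium passed the filter. Epcam stood at 14.65 to 14.90 in EFNA3 libraries and 14.52 to 14.61 in controls, and Cdh1 at 14.27 to 14.41 in EFNA3 libraries and 14.34 to 14.41 in controls. The keratin genes Krt8, Krt18 and Krt19 of that list, named after their values were seen, stood at 13.67 to 13.78, 13.52 to 13.70 and 13.69 to 13.82 in controls. The luminal sum was 16.98 to 17.13 in EFNA3 libraries and 16.92 to 16.99 in controls. The basal keratin genes Krt14 and Krt5 were also high, at 16.36 to 16.44 and 14.90 to 15.03 in EFNA3 libraries, against 16.21 to 16.36 and 14.90 to 14.94 in controls. The 10 basal markers, 8 of them tested, summed to 17.00 to 17.06 in EFNA3 libraries and 16.91 to 17.00 in controls, mostly Krt14. Other genes of this list were named after their values were seen. In controls Oxtr stood at 13.41 to 13.47 and Trp63 at 11.73 to 11.82. The contractile genes Mylk, Acta2 and Tagln stood there at 9.27 to 9.46, 7.66 to 7.88 and 5.12 to 5.32, and Myh11 and Cnn1 lay under the filter. Saa3 and other acute-phase genes are also made by macrophages, neutrophils, adipocytes and hepatocytes, so markers of these cells were read beside them. Of 10 macrophage markers 3 were tested, and the summed level of the 5 measured was 7.49 to 7.98 in EFNA3 libraries and 7.39 to 7.77 in controls (log2). Cd68 and Csf1r differed by -0.13 (SE 0.15) and 0.41 (SE 0.30). Without EFNA3 replicate 1, Csf1r was higher by 0.59 with no overlap and the median of the macrophage list was 0.22, against -0.01 with all libraries; Csf1r overlapped after the length and GC correction. Of 10 neutrophil markers 2 were tested, and the sum of the 3 measured, mostly S100a8, was 7.99 to 8.47 in EFNA3 libraries and 7.71 to 8.0 in controls; Camp differed by -0.08 (SE 0.45). Adipocyte markers, 4 of 8 tested, summed to 10.59 to 10.90 in EFNA3 libraries and 10.87 to 11.10 in controls, with Lpl and Pparg differing by -0.35 (SE 0.13) and -0.11 (SE 0.10). All 4 had lower means in EFNA3, each with overlap, and a median difference of -0.35 (-0.36 with the length and GC correction). Without EFNA3 replicate 1 the median was -0.38, and 3 were lower with no overlap, against 9.26% of 16206 tested genes. Fibroblast markers, 7 of 8 tested, summed to 10.84 to 10.99 in EFNA3 libraries and 10.97 to 11.03 in controls. Their 7 tested genes had 5 higher and 2 lower means in EFNA3 and a median difference of 0.29 (0.27 without EFNA3 replicate 1, 0.40 with the length and GC correction). The 2 lower ones had the highest control means, Pdgfra at -0.22 (SE 0.10) and Fbln1 at -0.31 (SE 0.10), both with no overlap. Endothelial markers, 1 of 5 tested, summed to 8.25 to 8.40 in EFNA3 libraries and 8.27 to 8.48 in controls, and Pecam1 differed by -0.02 (SE 0.10). The 6 lymphocyte markers were not analysed here. The 1 hepatocyte marker measured, Apoa2, lay at 2.49 to 3.96 in EFNA3 libraries and 1.67 to 3.98 in controls, under the filter. The defining markers Ptprc, Adgre1, Ly6g, Adipoq and Alb were not analysed here. The part of such cells in the Saa differences was not tested.

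By likeness to the mean centred profile of the 10 genes over the 6 libraries, the nearest of 11800 other genes were Pigc (r = 0.989), Bex1 (r = 0.988), Ccdc107 (r = 0.987), Fst (r = 0.987) and Ctps (r = 0.986). The profile itself was 0.20, 0.05 and 0.05 in EFNA3 libraries and -0.14, -0.04 and -0.13 in controls, set mainly by the Saa genes. These correlations over 6 libraries of 2 groups share the group difference and describe the profile only.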

How the data were processed

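Trim Galore, Subread, featureCounts and mouse build mm39 are named without versions, per the submitters' processing notes; the annotation, the strand setting and the step from reads to values were not stated. The kit keeps strand, per the labels' protocols. The authors deposited 1 table of log2 values with 1 column per library, and 0 columns were left without a sample. The log2 scale was inferred from the range of -0.79 to 18.11. Sorted columns differed by at most 0.00302, so the deposited log2 values share 1 distribution, as quantile normalization gives. Genes of equal rank hold equal values (Lcn2 in replicate 3 of both groups), depth is unknown, counting intervals cannot be computed, and a change common to all genes would be invisible.

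Genes entered the test with a value of 3.32 or more (10 linear) in 3 or more libraries. All tested genes went into 1 limma fit (version 3.58.1, under R 4.3.3; mean-variance trend, no pseudocount, no block, two-sided, Benjamini-Hochberg adjustment), whose SE is printed. The fit was tested on simulated data. With 3 libraries against 3, an exact permutation test cannot go below 0.1. Groups do not overlap where the lowest library of one lies beyond the highest of the other.

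Transcript length and GC share came from GENCODE M21, an earlier build, for 97.4% of tested genes, using the transcript with the longest coding sequence. The correction removed splines (5 degrees of freedom for length, 5 for GC share) from every library. Named genes are all 10 members, the 5 tested genes of each pathway list and up to 2 of each marker list with the highest control mean, and the 5 genes nearest in profile; others are named as chosen after their values were seen. A gene that this rule names is not reported here. The members and lists were chosen with earlier results of these data known. Alternatives covered the pseudocount, filter, scaling, variance model, library weights, replicate blocks, left-out libraries and the length correction.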

Additional observations from a re-analysis of the deposited data

How the results depend on the processing

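The number of genes past an adjusted limma p of 0.05 was 0 with all libraries and stayed 0 when any 1 library was left out, under other filters, a pseudocount of 5, another scaling, other variance models, library weights and the length and GC corrections. With replicate number as a block, taken from the titles, it was 0, and the median difference of the members 0.12. With the replicate block taken from the descriptions instead, where the difference rests on replicates 1 and 3 of each group, it was 71 of 16394 genes, and the median 0.14. That block leaves very few degrees of freedom for the error among 6 libraries, so nothing is drawn from this count. Neither set of numbers is shown to pair libraries: deviations of libraries with the same title number correlated at -0.11, 0.03 and -0.32 across genes, of which -0.11 and -0.32 are the pairs that the descriptions share, and EFNA3 replicate 1 correlated best with control replicate 3 (0.30).

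The median difference of the members was 0.12 and leaned on EFNA3 replicate 1. It ran from 0.02 (without EFNA3 replicate 1) to 0.21 (without EFNA3 replicate 3) when 1 library was left out, and was 0.02 with library weights, 0.01 with the length and GC correction, 0.03 with that correction and without EFNA3 replicate 1, and 0.01 with the lengths of the longest transcripts, a setting added after seeing the data. The number of members higher with no overlap was 3, and 3 to 4 when 1 library was left out, with Lcn2 added without EFNA3 replicate 3 or without control replicate 3. It was also 4 with scaling by the median log ratio. Of all tested genes, 8.53% were higher with no overlap with all libraries and 10.4% without EFNA3 replicate 1. The shares for the settings with 4 members are not given here, and no overlap is easier to reach with fewer libraries. The step from 3 to 4 is therefore not read as a result. Over 18 settings Saa1 ran from 0.37 to 0.81, Saa2 from 0.33 to 0.80, Saa3 from 0.64 to 0.98 and Lcn2 from 0.06 to 0.26, all above 0. Some settings (the filters, the variance models and the title block) cannot move a difference of group means, so the 18 are not separate checks of it. Hp (-0.04 to 0.17), C3 (-0.25 to 0.09), Orm1 (-0.08 to 0.31, over 17 settings, since it failed the stricter filter) and Lbp (-0.05 to 0.07) took both signs, while Cp (-0.23 to 0.00) and Pigr (-0.20 to -0.04) did not rise above 0.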
